A study of Homo sapiens with 8 samples.

Results

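The peroxiredoxin and thioredoxin system was examined through 10 genes, PRDX1 to PRDX6, TXN, TXNRD1, TXNIP and SRXN1, taken as the rows of the deposited count table that carry these symbols. All 10 were among the 57169 rows and among the 21378 genes that passed the filter on low counts. RNA came from HCT116 and SW620, established human colorectal carcinoma lines (SW620 comes from a lymph node metastasis). Cells of both lines were exposed for 24 hours to free 5-fluorouracil (5-FU), an inhibitor of thymidylate synthase, or to AFZC, which the series title describes as a metal-organic framework nanodrug that carries an aptamer and encapsulates 5-FU. Each agent was used at its IC50 in that line, the concentrations were not given in the labels, and no untreated group was analysed here: all treatment differences are AFZC relative to 5-FU. The series title names peroxidative cell death as the effect under study, and the genes below encode enzymes that reduce peroxides. There were 2 libraries in each of the 4 groups.

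Peroxiredoxins are abundant thiol enzymes that reduce hydrogen peroxide and organic peroxides with a reactive cysteine. PRDX1 and PRDX2 are mainly cytosolic, PRDX3 is mitochondrial, PRDX4 works in the endoplasmic reticulum, PRDX5 is found in several compartments, and PRDX6 is a 1-Cys enzyme that is recycled through glutathione rather than thioredoxin. Thioredoxin (TXN) returns the oxidised enzymes to their reduced form and is itself reduced by the selenoprotein thioredoxin reductase (TXNRD1) at the expense of NADPH. TXNIP, an alpha-arrestin, binds thioredoxin and restrains glucose uptake, and sulfiredoxin (SRXN1) rescues peroxiredoxins whose cysteine has been over-oxidised. TXNRD1, SRXN1, TXN and PRDX1 are textbook targets of the transcription factor NRF2, and TXNIP is a textbook target of the glucose-sensing factors MondoA (MLXIP) and ChREBP (MLXIPL).

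The upstream sequences below are shown because TXNIP and TXN had the 2 largest treatment differences of the members, both in SW620, and because TXNRD1 was the member with a match to the NRF2 motif. They are from RefSeq on GRCh38.p14 and stop where an annotated exon begins: TXNIP at chr1:145996601-145996829 (minus strand), TXN at chr9:110256641-110256757 (minus strand) and TXNRD1 at chr12:104215529-104215778 (plus strand). Capitals mark matches to the motifs described next.
TXNIP: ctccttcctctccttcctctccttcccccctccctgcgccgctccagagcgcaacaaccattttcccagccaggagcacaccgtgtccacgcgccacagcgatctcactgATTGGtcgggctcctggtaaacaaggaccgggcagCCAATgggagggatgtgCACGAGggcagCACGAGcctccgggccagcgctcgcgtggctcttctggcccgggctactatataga
TXN: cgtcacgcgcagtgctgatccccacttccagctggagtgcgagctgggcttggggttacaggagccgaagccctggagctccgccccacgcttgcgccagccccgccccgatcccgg
TXNRD1: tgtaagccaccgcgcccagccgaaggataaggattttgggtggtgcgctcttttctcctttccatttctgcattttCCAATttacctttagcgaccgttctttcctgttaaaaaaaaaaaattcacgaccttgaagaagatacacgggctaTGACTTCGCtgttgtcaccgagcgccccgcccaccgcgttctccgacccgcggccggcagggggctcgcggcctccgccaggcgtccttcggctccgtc

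RefSeq held promoter windows of 300 bases, from 250 before to 50 after the start, for 8 of the 10 members (11 windows), all but PRDX1 and PRDX6. Motifs were searched on both strands and compared with all 35116 windows of the table. The antioxidant response element core TGACNNNGC occurred in both TXNRD1 windows and in no window of the other members with a promoter, against 13.3% of all promoters. In the TXNRD1 window shown it began at position -99, and another match at -8 ran past the printed end. The E-box CACGTG was found in PRDX3 (position -157) and PRDX4 (position -83), and in 7.26% of all promoters. TXNIP held no CACGTG in either of its windows. The TXNIP window shown held a pair of CACGAG elements at -88 and -77 with CCAAT boxes at -140 (printed as ATTGG, the other strand) and -105. Its other window held none of the motifs searched. CACGAG and CCAAT were added to the search after the sequence had been seen. They occurred in 6.78% and 34.6% of all promoters, and both were also found in TXNRD1 (CACGAG at -120 in its other window, CCAAT at -174 in the window shown and -172 in the other). None of these matches overlapped another, and a match of letters does not show that a factor binds.

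Total counts were 31991561 to 40590291 per library. Levels are given as CPM, the counts of a gene over the total of its library, after scaling by TMM factors, which correct for the makeup of each library. The factors were 0.87 and 0.82 in the SW620 5-FU libraries and between 1.02 and 1.11 in the other 6. This correction matters in SW620: without it the median log2 fold change of all genes under AFZC moves from 0.04 to 0.42, and calls go from 2482 higher and 1486 lower to 5141 and 445. Every SW620 treatment value below carries that shift, so negative values shrink and positive ones grow without the correction. Mitochondrial genes took 9.95% to 12.4% of counts in HCT116 and 5.18% to 6.65% in SW620. The share of ribosomal protein genes was lower under AFZC, at 3.73% to 4.51% against 6.71% to 8.34% in HCT116 and 4.45% to 5.21% against 7.88% to 8.39% in SW620. Of 11 markers of colorectal epithelium, 7 to 8 exceeded 1 CPM in HCT116 and 10 in SW620, with EPCAM at 259 to 658 CPM throughout. Their summed level was 3503 to 4331 CPM under 5-FU and 4889 to 7948 CPM under AFZC in HCT116, and 15233 to 16601 CPM against 5111 to 5548 CPM in SW620. KRT8 held the largest part of it, at 7583 and 8337 CPM under 5-FU and 2231 and 1643 CPM under AFZC in SW620. VIL1 was at 0 to 1.96 CPM in HCT116 and 219 to 412 CPM in SW620, and CDX1 reached at most 0.225 CPM in any library. The summed leukocyte markers were at 6.03 to 8.73 CPM under 5-FU and 16.8 to 42.3 CPM under AFZC in SW620, of which LYZ held 15.7 to 40.4 CPM, while PTPRC and CD3E were at 0 in the AFZC libraries. The part of these shifts in the results below was not tested. In bulk RNA, fewer cells of a kind and less RNA per cell cannot be told apart.

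Per length, 8 of the members (all but TXNIP and SRXN1) ranked between 76 and 1824 among the 21378 genes in every group, the latter being PRDX2 in SW620 under 5-FU. In TPM units (counts divided by gene length and rescaled within a library), PRDX1 led in HCT116 under 5-FU with 679 ± 46.1 TPM (SD, n = 2), which placed it at rank 111. PRDX5 followed at 583 ± 8.94, TXN at 425 ± 55.3, PRDX6 at 305 ± 9.99, PRDX3 at 244 ± 11.2, PRDX2 at 205 ± 10.5, TXNRD1 at 161 ± 19.4, PRDX4 at 138 ± 6.80 and SRXN1 at 7.35 ± 1.93 TPM. No neighbours in that order overlapped between libraries. Under AFZC the order in HCT116 began likewise, with PRDX1 (800 ± 71.2 TPM) and PRDX5 (793 ± 87.5 TPM) overlapping. In SW620 TXNIP stood first, at 4588 ± 468 TPM under 5-FU (rank 19 of all genes) and 2364 ± 469 TPM under AFZC (rank 29). TXN (708 ± 18.3 TPM) and PRDX5 (607 ± 31.7 TPM) came next under 5-FU, ahead of PRDX1 (402 ± 16.6 TPM). Under AFZC PRDX5 (825 ± 197 TPM) preceded TXN (528 ± 28.7 TPM) and PRDX1 (445 ± 46.4 TPM), and TXNRD1, PRDX4 and PRDX6 overlapped with their neighbours at 191 ± 14.3, 186 ± 56.0 and 173 ± 25.2 TPM. SRXN1 was the lowest member with counts in every group, at no more than 13.5 TPM in any library and ranks of 8407 to 10495. Its exons share 85.0% of their length with another gene. How reads on shared bases were counted is not given, and TPM used the full length, so this level and rank may be too low or too high.

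**Figure D1:**
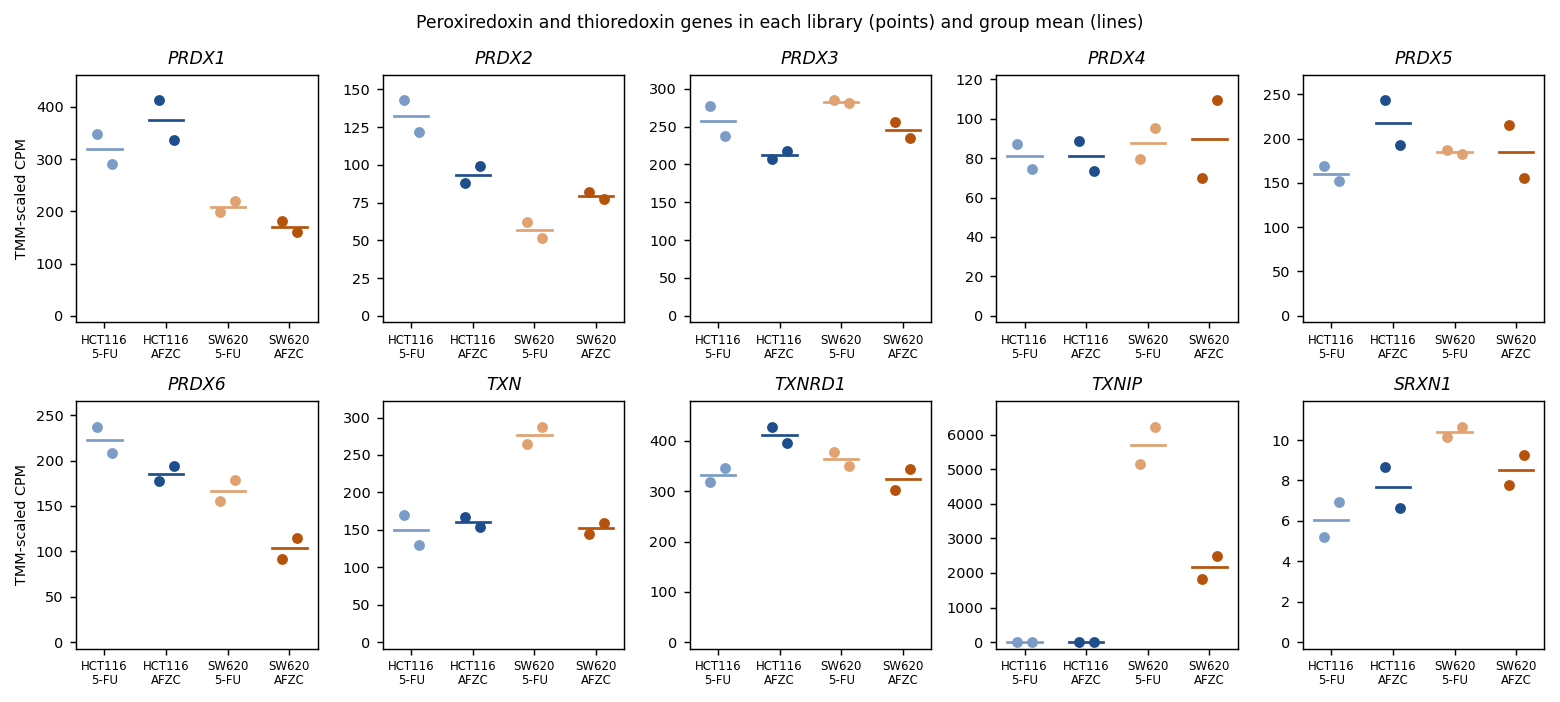
TMM-scaled CPM (y axis, from 0, a separate scale for each gene) of the 10 genes in the 4 groups (x axis); points are libraries and lines are group means of 2 libraries. TXNIP is at 0 in the 4 HCT116 libraries and between 1840 and 6233 CPM in SW620, and TXN in the SW620 5-FU libraries (265 and 288 CPM) lies above the other 6 (130 to 170 CPM).

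The sum of the 6 peroxiredoxins was 2154 ± 93.6 TPM in HCT116 under 5-FU and 2338 ± 101 TPM under AFZC, and 1672 ± 11.7 and 2065 ± 190 TPM in SW620. PRDX1 and PRDX5 together made up most of it. PRDX1 held 31.5% ± 0.773 and 34.2% ± 1.57 of the sum in HCT116 under 5-FU and AFZC and 24.0% ± 1.16 and 21.6% ± 0.263 in SW620. For PRDX5 the shares were 27.1% ± 0.762 and 33.9% ± 2.28 in HCT116, and 36.3% ± 1.64 and 39.7% ± 5.87 in SW620. PRDX2 took 9.51% ± 0.0748 and 6.28% ± 1.16 in HCT116 but 4.78% ± 0.743 and 7.31% ± 0.284 in SW620. The ratio of PRDX1 to PRDX2, both cytosolic, was 3.35 and 3.28 in the HCT116 5-FU libraries and 6.47 and 4.67 under AFZC. In SW620 it was 4.37 and 5.84 under 5-FU and 3.06 and 2.84 under AFZC. The AFZC libraries thus lay on opposite sides of the 5-FU libraries in the 2 lines. TPM is not scaled by TMM, so TPM is used here for the order and shares within a library. The sums above therefore give no direction between the treatments. In SW620 the mean of PRDX1 was lower under AFZC in CPM (209 ± 15.6 to 171 ± 15.6) and higher in TPM. The means of PRDX3, TXNRD1 and SRXN1 did the same.

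**Figure D2:**
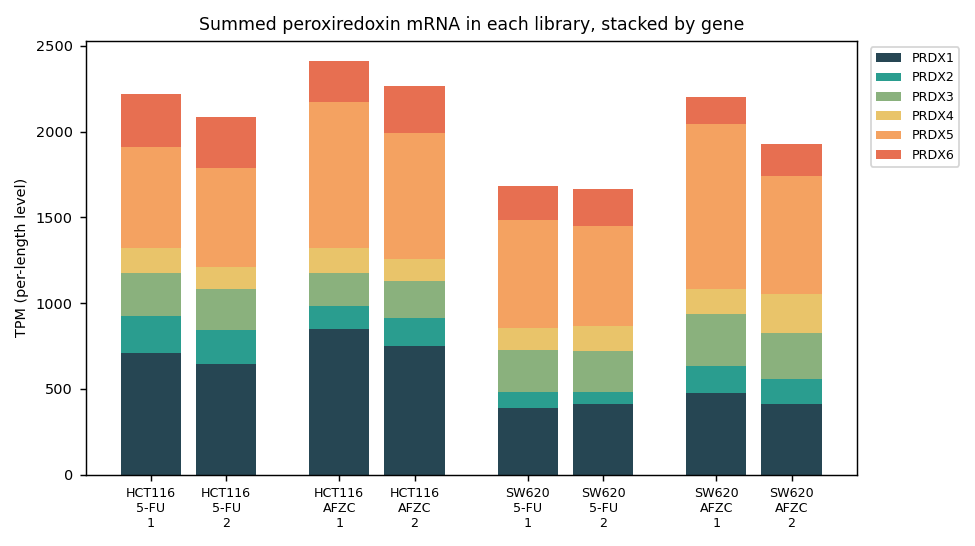
Stacked TPM (y axis, from 0) of PRDX1 to PRDX6 in each of the 8 libraries (x axis, group and replicate number); each colour is 1 gene. TPM is not scaled by TMM, so the full bar heights give no direction between the treatments. PRDX1 and PRDX5 are the tallest segments in every library, and the PRDX2 segment is thinnest in the SW620 5-FU libraries (70.9 and 89.2 TPM).

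The first comparison was AFZC against 5-FU in HCT116. No member passed the test, and the fitted changes were small. Of the 9 members with counts, 0 were called by edgeR's quasi-likelihood test at an adjusted p under 0.05, against 9.61% of all genes tested (5.87% higher and 3.74% lower). At an unadjusted p under 0.05 there were 2 members, PRDX2 and PRDX5, and DESeq2 called 1, PRDX2. The median log2 fold change of the 9 was 0.10, beside 0.01 for all genes.

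PRDX2 was at 143 and 122 CPM under 5-FU and 87.7 and 99.2 CPM under AFZC in HCT116. Both AFZC libraries were below both 5-FU libraries, and the log2 fold change was -0.50 ± 0.156 (SE, adjusted p = 0.0618, edgeR). Its adjusted p was 0.0414 with DESeq2 and ran from 0.0310 to 0.383 over the alternatives. PRDX5 was at 169 and 152 CPM under 5-FU and 243 and 192 CPM under AFZC, again without overlap, at 0.44 ± 0.183 (adjusted p = 0.153, edgeR). TXNRD1, at 318 and 346 CPM against 428 and 396 CPM, had 0.31 ± 0.157 (adjusted p = 0.244, edgeR). TXN overlapped between the treatments, with 170 and 130 CPM against 167 and 154 CPM. Its log2 fold change of 0.10 had a 95% interval of -0.26 to 0.46. PRDX1 (0.23), PRDX3 (-0.27), PRDX4 (0.003), PRDX6 (-0.26) and SRXN1 (0.34) had adjusted p-values of 0.294 to 1 by edgeR. For TXNIP all 4 HCT116 libraries had 0 counts, so no fold change is given.

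In SW620, TXNIP, TXN and PRDX6 fell under AFZC relative to 5-FU. Thus 3 of 10 members fell and 0 rose by edgeR, against 6.95% of all genes called lower and 11.6% called higher, and the median of the 10 members was -0.25 beside 0.04 for all genes. At an unadjusted p under 0.05 there was 1 higher member, PRDX2, which DESeq2 called.

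TXNIP was at 5146 and 6233 CPM under 5-FU and at 1840 and 2484 CPM under AFZC, a change on the log2 scale of -1.40 ± 0.220 (SE, adjusted p = 0.00171, edgeR). The highest AFZC library was below the lowest 5-FU library. The call held without any 1 library (-1.63 to -1.19, adjusted p at most 0.0165) and under every other setting tried. TXN was at 265 and 288 CPM under 5-FU and 145 and 159 CPM under AFZC, with no overlap. It fell by 0.86 ± 0.166 (adjusted p = 0.00359, edgeR) and kept its call in every alternative run (adjusted p at most 0.0398), although the value was -0.48 with library sizes only. TXNIP per TXN, in TPM, was 6.12 and 6.82 under 5-FU and 4.003 and 4.92 under AFZC, so TXNIP mRNA was lower relative to TXN mRNA too. TXN per TXNRD1 was 4.12 and 4.82 under 5-FU and 2.80 and 2.72 under AFZC.

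PRDX6 was at 155 and 178 CPM under 5-FU and 91.7 and 115 CPM under AFZC in SW620. Its groups did not overlap, and it fell by 0.69 ± 0.165 (adjusted p = 0.0119, edgeR). The call was lost without replicate 2 of 5-FU (-0.59, adjusted p = 0.128), without replicate 1 of AFZC (-0.53, adjusted p = 0.0902), with library sizes in place of TMM factors (-0.32, adjusted p = 0.156) and with a trend on abundance taken out (-0.41, adjusted p = 0.0921). PRDX2 was at 62.3 and 51.8 CPM under 5-FU and 81.7 and 77.2 CPM under AFZC, the reverse order to HCT116, with a log2 fold change of 0.48 ± 0.157 (adjusted p = 0.0511, edgeR). DESeq2 gave it an adjusted p of 0.0480, and the range over the alternatives was 0.00292 to 0.373.

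The other members did not pass the test in SW620. PRDX1 (-0.29), PRDX3 (-0.21), TXNRD1 (-0.17) and SRXN1 (-0.29) had negative values that turned positive with library sizes only, and those of PRDX1, PRDX3 and TXNRD1 also did with the abundance trend taken out. PRDX4 was at 79.5 and 95.5 CPM under 5-FU and 69.7 and 109 CPM under AFZC, the widest spread between replicates among the members there. PRDX5 had 187 and 182 CPM under 5-FU and 215 and 156 CPM under AFZC. Their log2 fold changes of 0.03 and 0.002 had 95% intervals of -0.41 to 0.48 and -0.39 to 0.40.

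**Figure D3:**
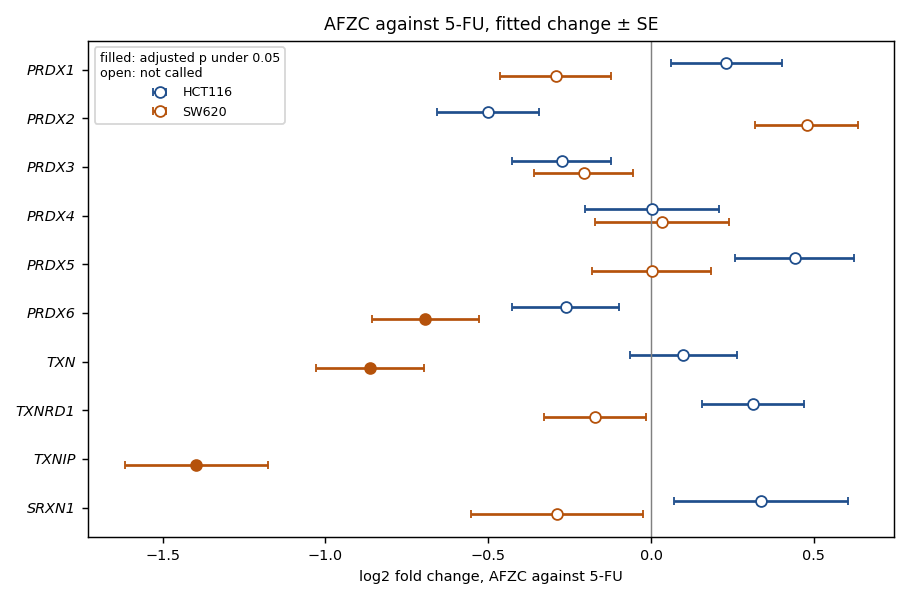
Log2 fold change (x axis) of AFZC against 5-FU for each gene (y axis) in HCT116 (blue) and SW620 (orange); points are fitted values, bars are SE, and filled points passed an adjusted p under 0.05. PRDX6, TXN and TXNIP are filled in SW620 at -0.69, -0.86 and -1.40, no point is filled in HCT116, and TXNIP has no HCT116 point because it had 0 counts there.

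Whether the treatment effect differed between the lines was tested as the difference of the 2 effects, SW620 minus HCT116. It passed for 2 of 9 members, PRDX2 and TXN, 1 in each direction, against 9.78% of all genes (5.65% higher in SW620 and 4.14% lower). PRDX2 had a difference of 0.98 ± 0.222 (adjusted p = 0.0160, edgeR), lower under AFZC in HCT116 and higher in SW620. The call was lost without replicate 1 of HCT116 5-FU (adjusted p = 0.0915) or replicate 2 of SW620 5-FU (adjusted p = 0.101). TXN had a difference of -0.96 ± 0.234 (adjusted p = 0.0224, edgeR). That call was lost without HCT116 5-FU replicate 2 (adjusted p = 0.111), HCT116 AFZC replicate 1 (0.0519), SW620 5-FU replicate 2 (0.101) or SW620 AFZC replicate 1 (0.0546), and with library sizes only (0.0882) or the abundance trend taken out (0.106). The differences of PRDX1 (-0.52) and TXNRD1 (-0.48) had unadjusted p-values of 0.0493 and 0.0487 and adjusted p-values of 0.200 and 0.198 by edgeR. PRDX6, called in SW620 alone, had a difference of -0.43 ± 0.232 (adjusted p = 0.276, edgeR), so its effect was not shown to differ between the lines.

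SW620 against HCT116 gave the largest contrast among the members in TXNIP. It had 355788 counts in the SW620 5-FU libraries together and 0 in those of HCT116, and 154396 against 0 under AFZC. By total counts, without the TMM factors, a floor of 3 counts over a group was 0.0442 CPM under 5-FU and 0.0427 CPM under AFZC. Set against it on that scale, TXNIP was at least 108692-fold higher in SW620 under 5-FU and at least 55292-fold higher under AFZC. The floor covers counting error only, and single counts may not be single fragments, so these bounds may be too high. The neighbouring genes LIX1L, ANKRD34A and POLR3GL on chromosome 1 had 485 to 936, 91 to 109 and 300 to 599 counts in the HCT116 libraries, so the region was not without reads. HJV, which also neighbours TXNIP, had 0 counts in HCT116 and in 3 of the 4 SW620 libraries. The cause of the zero in HCT116 was not tested.

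Under 5-FU 6 of 10 members differed between the lines, 3 in each direction, against 54.8% of all genes (26.5% higher in SW620 and 28.2% lower). TXN (0.88 ± 0.166, adjusted p = 0.00062, edgeR) and SRXN1 (0.78 ± 0.267, adjusted p = 0.0249, edgeR) were higher in SW620 along with TXNIP. SRXN1 had 5.19 and 6.93 CPM in HCT116 and 10.2 and 10.7 CPM in SW620. PRDX2 was the lowest relative to HCT116, at 62.3 and 51.8 CPM against 143 and 122 CPM (-1.21 ± 0.159, adjusted p = 3.09e-05, edgeR). PRDX1 was at 198 and 220 CPM against 348 and 290 CPM (-0.61 ± 0.171, adjusted p = 0.00874, edgeR), and PRDX6 differed by -0.42 ± 0.164 (adjusted p = 0.0468, edgeR). The calls of PRDX2 and TXN held without any 1 library. That of PRDX1 was lost without replicate 1 of HCT116 5-FU or of SW620 5-FU (adjusted p = 0.0858 and 0.0810). SRXN1 lost its call without 3 of the 5-FU libraries (HCT116 replicate 1 and both of SW620, adjusted p up to 0.189) and with library sizes only (0.151), and PRDX6 without any of the 4 5-FU libraries (up to 0.267) and with the length trend taken out (-0.30, adjusted p = 0.142).

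Under AFZC the values between lines were nearer 0 for TXN and PRDX2 and more negative for PRDX1 and PRDX6, of which only the former pair passed the test of the difference above. In all, 3 of 10 members differed, against 49.3% of all genes (25.1% higher and 24.2% lower): TXNIP higher, and PRDX1 (-1.13 ± 0.173, adjusted p = 0.000137, edgeR) and PRDX6 (-0.85 ± 0.165, adjusted p = 0.000958, edgeR) lower. PRDX1 was at 182 and 160 CPM in SW620 and 413 and 337 CPM in HCT116. Both calls held without any 1 library. TXN overlapped, with 145 and 159 CPM in SW620 and 167 and 154 CPM in HCT116 (-0.08, 95% interval -0.44 to 0.28), and PRDX2 stood at 81.7 and 77.2 against 87.7 and 99.2 CPM (-0.23 ± 0.156, adjusted p = 0.234, edgeR). TXNRD1 differed by -0.35 ± 0.157 (adjusted p = 0.0818, edgeR), and was called lower in SW620 when the trend on abundance was removed (-0.46, adjusted p = 0.0230). PRDX3 (0.21), PRDX4 (0.14), PRDX5 (-0.23) and SRXN1 (0.15) did not pass. The 2 line comparisons use different libraries, but each shares its libraries with the treatment comparisons, so these values are not separate evidence.

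**Figure D4:**
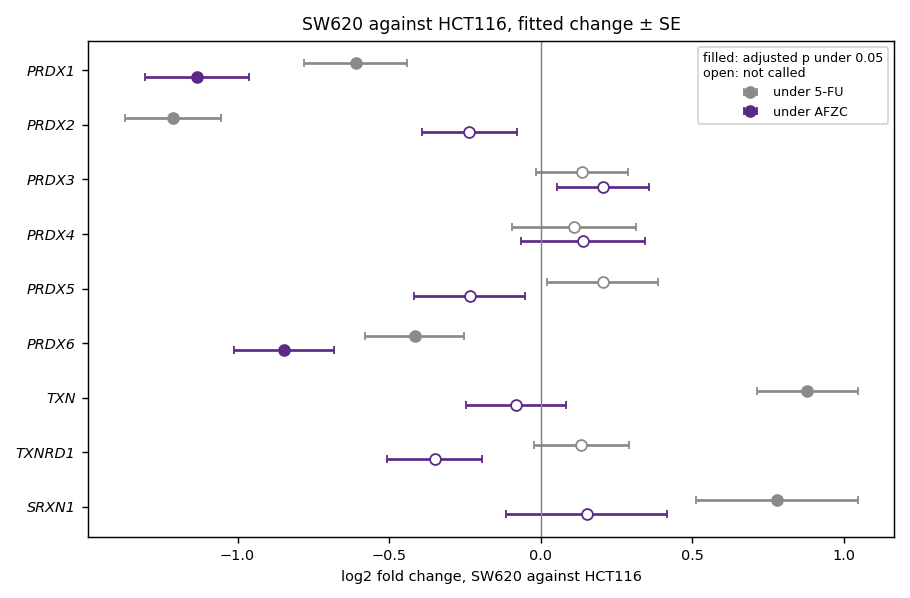
Log2 fold change (x axis) of SW620 against HCT116 for 9 genes (y axis) under 5-FU (grey) and AFZC (purple); points are fitted values, bars are SE, and filled points passed an adjusted p under 0.05. PRDX2 and TXN are filled under 5-FU (-1.21 and 0.88) and open under AFZC, while PRDX1 and PRDX6 are filled under both; TXNIP, at 0 counts in HCT116, is left out.

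Some counts cannot be assigned to a member alone, since the libraries did not keep the strand. Exons of SRXN1 (chromosome 20, 646615 to 653370, GRCh38) share 85.0% of their length with AL121758.1, those of PRDX1 (chromosome 1, 45511036 to 45523047) 24.9% with MMACHC and those of PRDX2 (chromosome 19, 12796820 to 12801859) 14.1% with AC018761.2. TPM divided by the full length, so the TPM order, the peroxiredoxin shares and the ratio of PRDX1 to PRDX2 carry this uncertainty. The exons of TXNIP (chromosome 1, 145992435 to 145996600), TXN (chromosome 9, 110243811 to 110256640), PRDX6 (chromosome 1, 173477266 to 173488807), TXNRD1 (chromosome 12, 104215779 to 104350305), PRDX3, PRDX4 and PRDX5 overlap those of no other gene. Annotated pseudogenes of PRDX1 to PRDX4 and TXN had at most 0.495% of their parent's counts.

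Genes with the pattern most like a member were found by the root mean square distance of centred log2 CPM over the 8 libraries, among 11729 genes. For TXNIP the nearest was GPX2, a glutathione peroxidase of the gut epithelium, at a distance of 1.77. GPX2 averaged 0.396 and 0.354 CPM in HCT116 under 5-FU and AFZC and 1050 and 273 CPM in SW620, so it too was near 0 in HCT116 and lower under AFZC than under 5-FU in SW620. PROX1, ROBO1 and EPS8L3 followed at 2.02, 2.04 and 2.14. For TXNRD1 the nearest were SFSWAP, VEZF1, TAB2 and THUMPD2 (0.0666 to 0.0794), and for SRXN1 RBMS2, DDX47, SPAG9 and AFF4 (0.0874 to 0.104). With 8 libraries in 4 groups such likeness is a description.

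Beyond the members, 86 genes of the wider pathway were followed in 9 lists, 82 of which were tested. In HCT116, 8 were higher and 7 lower under AFZC, where 5.87% of all genes were called higher and 3.74% lower (9.61% in either direction). In SW620, 5 were higher and 16 lower, where 11.6% of all genes were called higher and 6.95% lower (18.6% in either direction). The counts of each list below are to be read beside these shares. The median list gene was at -0.04 in HCT116 and -0.26 in SW620. That balance depends on the scaling in SW620: with library sizes only it was 14 higher and 4 lower with a median of 0.12. Without the TMM factors GSR, ME1, IDH1, FTL, NFE2L2, MAFG, MLXIPL, NFYA, ARRDC1, SEPSECS, SECISBP2 and APEX1 lost their SW620 calls (adjusted p up to 0.704), and APEX1 its HCT116 call (0.0589). With the abundance trend taken out GSR, IDH1, FTL, NFE2L2, MAFG, NFYA, ARRDC1, NQO1, TKT, HMOX1 and SESN1 lost theirs in SW620 (up to 0.529). Genes named below as additional were chosen after their values were seen.

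Among thioredoxin relatives the share called was near that of all genes in HCT116 (9.61%). There 1 of 9 tested rose, TXNDC17, a small cytosolic thioredoxin-fold protein, and 0 fell. TXNDC17 went from 29.3 and 22.9 CPM to 58.7 and 39.1 CPM (log2 fold change 0.91 ± 0.211, adjusted p = 0.0177, edgeR). Of the same 9 in HCT116, 2 were lower at an unadjusted p under 0.05 and 1 was called lower by DESeq2. In SW620 0 of 9 passed with edgeR or DESeq2, and 2 were lower at an unadjusted p under 0.05. The additional mitochondrial pair TXN2 and TXNRD2 had -0.28 and 0.40 in HCT116 and -0.18 and -0.45 in SW620, none of them called. Among 9 glutaredoxins and methionine sulfoxide reductases, MSRB2, a mitochondrial enzyme, fell in HCT116 (-1.08 ± 0.243, adjusted p = 0.0150, edgeR) and GSR, glutathione reductase, fell in SW620 from 228 and 249 to 175 and 168 CPM (-0.48 ± 0.143, adjusted p = 0.0351, edgeR). The call of GSR was lost without any of 6 libraries (adjusted p up to 0.253), and that of MSRB2 without replicate 1 of HCT116 5-FU or of AFZC (up to 0.224). TXNDC17 lost its call without 3 of the HCT116 libraries (up to 0.178).

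Of 9 oxidative folding partners of PRDX4 in the endoplasmic reticulum, PDIA3 and QSOX1, a disulfide isomerase and a thiol oxidase, fell in HCT116 by 0.64 and 0.65. Their adjusted p-values were 0.0392 and 0.0194 by edgeR, and their calls were lost without any of 6 and of 3 libraries (up to 0.266 and 0.114). Thus 2 of the 9 were called lower in HCT116 by edgeR, against 3.74% of all genes, and 3 by DESeq2. At an unadjusted p under 0.05, 6 were lower there and 0 higher. In SW620 0 of the 9 were called by edgeR, with 1 lower at an unadjusted p under 0.05 and 1 called by DESeq2. The list median was -0.45 in HCT116 and -0.09 in SW620.

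The list drawn up for the supply of NADPH, the reductant TXNRD1 uses, also holds genes such as TKT whose enzymes make no NADPH themselves. Some of its genes fell in SW620. There 3 of 10 fell and 0 rose, against 6.95% of all genes called lower and 11.6% higher. At an unadjusted p under 0.05, 1 was higher, and DESeq2 called 1 higher. TKT, transketolase of the pentose phosphate pathway, went from 659 and 765 to 362 and 385 CPM (-0.93 ± 0.162, adjusted p = 0.0019, edgeR). The call held without any 1 library, while the value was -0.32 (adjusted p = 0.156) once the trend on abundance was removed. ME1, malic enzyme, and the additional IDH1, isocitrate dehydrogenase, fell by 0.69 and 0.59 (adjusted p = 0.0139 and 0.0270, edgeR), and both were lost without 3 of the SW620 libraries. In HCT116 the same list had 1 gene higher and 0 lower by edgeR and DESeq2, with 2 lower at an unadjusted p under 0.05. The higher gene was NNT, the mitochondrial transhydrogenase, with 0 and 4 counts under 5-FU and 42 and 24 under AFZC. NNT was near 0 in HCT116 (at most 1.11 CPM) and at 146 to 162 CPM in SW620, so its fitted change of 3.89 rests on few counts, and it ran from 2.95 to 7.95 without each library in turn, the highest without replicate 2 of HCT116 5-FU, where the remaining 5-FU library had 0 counts and the fitted value is no bound.

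NQO1 and HMOX1, both targets of NRF2, moved in opposite directions in both lines. NQO1, a quinone reductase and standard NRF2 target, fell in both lines, from 536 and 530 to 230 and 236 CPM in HCT116 (-1.20 ± 0.173, adjusted p = 0.00139, edgeR) and from 813 and 930 to 382 and 477 CPM in SW620 (-1.02 ± 0.172, adjusted p = 0.00159, edgeR). Its SW620 value was -0.44 (adjusted p = 0.062, edgeR) once the trend on abundance was removed. HMOX1, heme oxygenase, rose in both, from 15.6 and 14.0 to 36.1 and 27.5 CPM in HCT116 (1.10 ± 0.244, adjusted p = 0.0142, edgeR) and, as an additional gene, by 0.98 ± 0.253 in SW620 (adjusted p = 0.0185, edgeR). The calls of HMOX1 were lost without 3 HCT116 or 2 SW620 libraries (up to 0.133 and 0.137). In HCT116 these were the 2 calls among 15 genes, a list that holds regulators as well as targets. Of all genes, 5.87% were called higher and 3.74% lower in HCT116, and 11.6% and 6.95% in SW620. In SW620, 1 rose and 4 fell: FTL, the ferritin light chain (-1.005 ± 0.252, adjusted p = 0.0162, edgeR), NQO1, and the additional NFE2L2 (NRF2 itself) and MAFG, its dimer partner, with -0.46 and -0.56 (adjusted p = 0.0401 and 0.0239, edgeR). The calls of FTL, NFE2L2 and MAFG were lost without 2, 6 and 3 libraries. The list median was 0.14 in HCT116 and -0.46 in SW620. At an unadjusted p under 0.05, 3 were higher and 2 lower in HCT116, and 2 higher and 7 lower in SW620. DESeq2 called 2 higher and 1 lower in HCT116, and 2 higher and 5 lower in SW620. The additional SLC7A11, the cystine carrier, had -1.26 and -1.07 in the 2 lines with adjusted p-values of 0.128 and 0.135.

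Among regulators of TXNIP and its alpha-arrestin relatives, 4 of 10 tested fell in SW620 and 0 rose by edgeR, by DESeq2 or at an unadjusted p under 0.05. Of all genes, edgeR called 6.95% lower and 11.6% higher there. ARRDC3, an alpha-arrestin like TXNIP, was at 59.4 and 61.9 CPM under 5-FU and 22.6 and 30.2 CPM under AFZC (-1.20 ± 0.211, adjusted p = 0.00208, edgeR), a call kept without any 1 library. It also fell in HCT116, where TXNIP had no counts, from 56.3 and 79.2 to 41.6 and 31.0 CPM (-0.90 ± 0.209, adjusted p = 0.0176, edgeR), and the call was lost without replicate 2 of 5-FU (-0.66, adjusted p = 0.173) or of AFZC (-0.73, adjusted p = 0.0638). NFYA, a subunit of the factor that binds CCAAT boxes, fell in SW620 by 0.63 (adjusted p = 0.0398, edgeR, lost without 5 libraries). The additional MLXIPL and ARRDC1 fell by 0.62 and 0.50 (adjusted p = 0.0149 and 0.0452, edgeR, lost without 2 and 6 libraries). The additional ARRDC4, another target of MondoA, had -0.41 in SW620 (adjusted p = 0.541) and 0.79 in HCT116 (adjusted p = 0.296). In HCT116 ARRDC3 was the only call by edgeR among the 10. DESeq2 called 1 higher as well, and 3 were higher at an unadjusted p under 0.05.

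**Figure D5:**
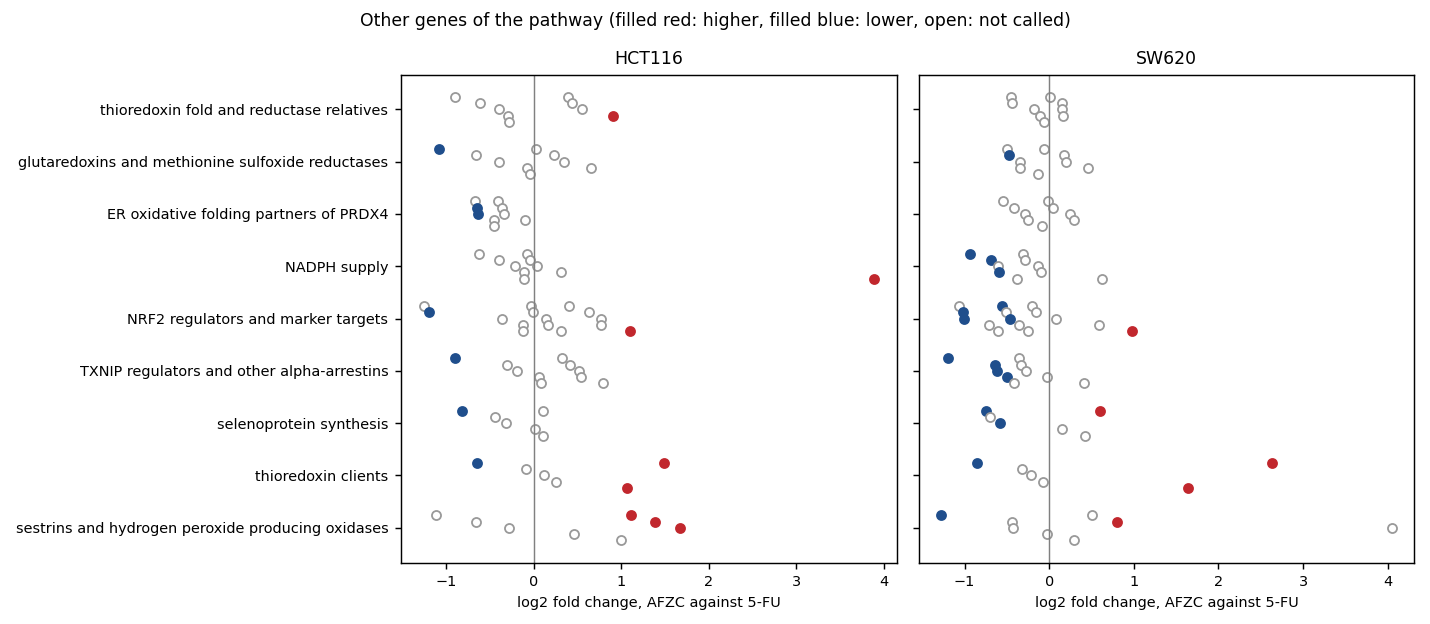
Log2 fold change (x axis) of AFZC against 5-FU for every tested gene of the 9 lists (y axis; vertical offsets only separate points) in HCT116 (left) and SW620 (right); red points are higher and blue points lower at an adjusted p under 0.05, open points were not called. Blue points outnumber red in SW620 (16 and 5) but not in HCT116 (7 and 8), and the red HCT116 point at 3.89 is NNT.

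Selenoprotein synthesis, on which TXNRD1 depends for its active site, showed 1 call in HCT116 and 3 in SW620 among 6 genes. The shares of all genes called were 9.61% and 18.6%. EEFSEC, the selenocysteine elongation factor, fell in HCT116 by 0.82 (adjusted p = 0.0297, edgeR). In SW620 SEPHS2, which makes the selenium donor, rose by 0.60 ± 0.174 (adjusted p = 0.0314, edgeR), while SEPSECS, which forms selenocysteine on its tRNA, fell by 0.74 (adjusted p = 0.0233, edgeR) and the additional SECISBP2 by 0.58 (adjusted p = 0.0187, edgeR). Each of these 4 calls was lost without any of 3 libraries (adjusted p up to 0.284).

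In the list of thioredoxin clients the genes that rose were subunits of ribonucleotide reductase. Ribonucleotide reductase, which thioredoxin can reduce, makes deoxyribonucleotides. Its large subunit RRM1 went from 77.4 and 68.8 to 238 and 220 CPM in SW620 (1.65 ± 0.150, adjusted p = 1.88e-05, edgeR) and had 94.0 and 99.4 against 122 and 109 CPM in HCT116 (0.25, adjusted p = 0.314). The small subunit RRM2 rose in both lines, by 2.63 ± 0.248 in SW620 and 1.06 ± 0.230 in HCT116 (adjusted p = 3.6e-05 and 0.0139, edgeR, the latter lost without 3 libraries, up to 0.139). RRM2B, the p53-inducible small subunit, rose in HCT116 from 124 and 123 to 310 and 380 CPM (1.48 ± 0.156, adjusted p = 0.000178, edgeR) and was at 41.2 and 45.95 against 38.6 and 36.3 CPM in SW620. The additional APEX1, a repair and redox factor, fell by 0.65 and 0.85 in HCT116 and SW620 (adjusted p = 0.0435 and 0.0079, edgeR), lost without 5 libraries and 1 library. Of the 6 genes in this list, 2 thus rose and 1 fell in each line. The list counts each subunit of ribonucleotide reductase as a gene. In HCT116 the 2 that rose were the small subunits RRM2 and RRM2B, and RRM1 was not called. Of all genes, 5.87% rose and 3.74% fell in HCT116, and 11.6% and 6.95% in SW620.

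Among sestrins and oxidases that produce hydrogen peroxide, 3 of 8 tested rose in HCT116 and 0 fell by edgeR, against 5.87% and 3.74% of all genes. At an unadjusted p under 0.05, 1 was lower, and DESeq2 called 1 lower. SESN1 and SESN2, p53-inducible stress proteins reported to aid peroxiredoxin recycling, rose from 15.3 and 14.7 to 46.6 and 49.3 CPM and from 26.8 and 24.8 to 68.5 and 66.1 CPM. Their log2 fold changes of 1.67 ± 0.216 and 1.38 ± 0.154 (adjusted p = 0.000749 and 0.000263, edgeR) held without any 1 library. The additional DUOX1, a dual oxidase, rose there by 1.11 (adjusted p = 0.0287, edgeR, lost without 3 libraries). In SW620 SESN1 rose by 0.80 ± 0.219 (adjusted p = 0.0236, edgeR, lost without 3 libraries), SESN2 stood at 46.4 and 46.1 against 42.1 and 48.9 CPM, and DUOX1 fell by 1.28 ± 0.299 (adjusted p = 0.0119, edgeR, lost without replicate 2 of 5-FU).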

How the data were processed

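RNA was measured in 8 poly(A)-selected libraries that did not keep the strand, per the labels' protocols, with 2 in each group. The deposited values are raw counts, with gene symbols as identifiers, in the layout of featureCounts. GRCh38, the read cleaners Trimmomatic and cutadapt, the aligners STAR and HISAT2, the packages edgeR and DESeq2, and featureCounts and FastQC appear in the submitters' processing notes without roles, and which aligner made the counts is not given in the sources used here. All 10 members lay at their GENCODE 29 positions. In each library 1.68 to 1.84 times as many genes had 2 counts as had 1, so single counts may not be single fragments, and floors (3 counts) cover counting error only.

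Counts passed filterByExpr (minimum count 10) and were scaled by TMM. EdgeR 4.0.16 in R 4.3.3 (limma 3.58.1) fitted 4 group means to all 8 libraries by robust quasi-likelihood with 4 residual degrees of freedom. Contrasts were two-sided, adjusted by Benjamini-Hochberg over 21378 genes, with a threshold of 0.05, and the SE is the log2 fold change over the square root of F. The common dispersion gave a coefficient of variation of 19.9%. TPM was computed from counts and the length column. Alternatives were DESeq2 1.42.0, its size factors in edgeR, library sizes only, upper quartile factors, no filter, a minimum count of 50, a replicate block, loess trends (span 0.3) on abundance or length, only the libraries compared, and leaving out each library. A lone sample left in a group is then assumed to vary like the other groups.

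Named genes are all members, from each list and treatment comparison the 2 called genes with the largest change, and for TXNIP, TXNRD1 and SRXN1 the 4 nearest genes (mean log2 CPM of at least 1, log2 of CPM plus 0.5). Other named genes are given as additional. 1 item was left out of the lists and their counts and is not reported here. The members and lists were chosen with earlier results of these data known. The labels do not state whether replicates are separate cultures. The p-values rest only on how far these libraries lie apart, a spread that may be technical. Replicates were not duplicates (chi-square over its degrees of freedom 23.3 to 58.7). Steps were tested on simulated data. Promoter sequences are from RefSeq, and protein sequences were not used here.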

Additional observations from a re-analysis of the deposited data

Results flagged for a closer look

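Each of the following effects of AFZC relative to 5-FU differed between the lines by a test of the difference (SW620 minus HCT116, log2, edgeR's quasi-likelihood test with adjustment over all genes). Among the members these were PRDX2, with a difference of 0.98 (-0.50 in HCT116 and 0.48 in SW620), and TXN, with -0.96 (0.10 and -0.86).

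In the NADPH and glutathione genes, the AFZC effect was more negative in SW620 for GSR by -0.82 (0.34 in HCT116 and -0.48 in SW620, adjusted p = 0.0236) and for TKT by -0.82 (-0.11 and -0.93, adjusted p = 0.0385). Both calls were lost without at least 4 of the 8 libraries in turn and with library sizes only. NNT differed by -4.02 (adjusted p = 0.00193), on 4 counts in the HCT116 5-FU libraries (-8.07 to -3.08 without each library in turn, the former without replicate 2 of HCT116 5-FU). Outside these genes, the alpha-arrestin ARRDC1 differed by -0.82 (adjusted p = 0.0377, lost without any of 7 libraries). Its call was also lost with library sizes only (adjusted p = 0.189), upper quartile factors (0.0501) or the abundance trend taken out (0.0664).

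The ribonucleotide reductase subunits differed in opposite directions, RRM1 by 1.39 (adjusted p = 0.00165) and RRM2 by 1.57 (adjusted p = 0.012, lost without replicate 1 of HCT116 5-FU) against RRM2B by -1.70 (adjusted p = 0.000666). SESN2 differed by -1.41 (1.38 in HCT116 and -0.02 in SW620, adjusted p = 0.00186). DUOX1 differed by -2.39, with 1.11 in HCT116 and -1.28 in SW620 (adjusted p = 0.00443).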

How the results depend on the processing

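The alternatives changed no direction of a called member. Counts of members called moved as follows. In HCT116 the number lower was 0 and became 1 (PRDX2) with upper quartile factors, no filter, the abundance trend taken out or DESeq2, and ran from 0 to 1 without each library. In SW620 the number higher was 0 and became 1 (PRDX2) with library sizes only, no filter, a minimum count of 50, the abundance trend taken out or DESeq2, and ran from 0 to 1 without each library. The number lower there was 3 and became 2 (without PRDX6) with library sizes only or the abundance trend taken out, and ran from 2 to 3 without each library. For the difference of effects the number lower was 1 (TXN) and became 0 with library sizes only or the abundance trend taken out, and both directions ran from 0 to 1 without each library. Between lines under 5-FU the number higher was 3 and became 2 (without SRXN1) with library sizes only, the number lower was 3 and became 2 (without PRDX6) with the length trend taken out, and they ran from 2 to 3 and from 1 to 3 without each library. Under AFZC the number lower was 2 and became 3 (with TXNRD1) with the abundance trend taken out. Without HCT116 5-FU replicate 1 the calls over all genes in HCT116 were 216 higher and 89 lower instead of 1254 and 800. DESeq2 called 1543 higher and 1172 lower there.

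Values of members that were not called changed sign, and the cause was not tested. In HCT116 PRDX4 became -0.00594 with median-ratio factors, -0.061 with upper quartile factors, -0.021 without a filter, -0.057 with the abundance trend taken out and -0.00597 with DESeq2. In SW620 library sizes only and the abundance trend gave PRDX1 0.088 and 0.12, PRDX3 0.17 and 0.19 and TXNRD1 0.20 and 0.33, and library sizes gave SRXN1 0.086. PRDX5 there became -0.000185 with median-ratio factors or DESeq2, -0.016 with the replicate block and -0.025 with the length trend taken out, which gave PRDX4 -0.089. The length trend turned the differences of PRDX3 to -0.055 and of PRDX4 to -0.10. Between lines under 5-FU library sizes and the abundance trend gave PRDX3 -0.16 and -0.34, PRDX4 -0.19 and -0.16, PRDX5 -0.093 and -0.23 and TXNRD1 -0.17 and -0.38. Without each library PRDX4 ran from -0.15 to 0.12 in HCT116, -0.33 to 0.33 in SW620, -0.31 to 0.34 for the difference, -0.026 to 0.23 between lines under 5-FU and -0.22 to 0.44 under AFZC. TXN in HCT116 ran from -0.10 to 0.31, PRDX5 in SW620 from -0.24 to 0.22, the difference of PRDX3 from -0.047 to 0.20 and SRXN1 between lines under AFZC from -0.016 to 0.35.

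Replicate numbers did not pair the samples: deviations of same-numbered libraries had a correlation of 0.0505 in HCT116 and -0.0262 in SW620. With the replicate block SW620 still had 3 members lower (TXNIP -1.41, TXN -0.86, PRDX6 -0.70), calls over all genes were 2354 higher and 1486 lower against 2482 and 1486, and the list genes NFE2L2 and NFYA lost their calls (adjusted p = 0.0542 and 0.0561). With 2 libraries in a group, the spread between them limits what can be called, and SRXN1, at 5.19 to 10.7 CPM, had the highest SE of the members for AFZC against 5-FU in HCT116 (0.267) and in SW620 (0.264).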
